A study of Bos taurus with 6 samples.

Results

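COL1A1, COL1A2 and COL3A1, the genes of the main fibrillar collagens of muscle, were followed in the longissimus dorsi, a back muscle, of Hanwoo (Korean cattle). They were chosen by their bovine Ensembl gene IDs, ENSBTAG00000013103 for COL1A1, ENSBTAG00000013472 for COL1A2 and ENSBTAG00000021466 for COL3A1. All 3 were found among the 24616 gene rows and among the 12769 genes with enough reads to be tested. The animals were 3 bulls (intact males), all aged 746 days, and 3 steers (castrated males), Steer 439 aged 996 days, Steer 456 aged 950 days and Steer 458 aged 930 days. Each gave 1 library of poly(A) RNA. No transgene, drug or other treatment is named in the labels. Since the steers were all older than the bulls, effects of castration and of age cannot be told apart here.

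Fibrillar collagens are secreted as procollagen chains that wind into a triple helix, are trimmed outside the cell and assemble into the fibrils that give tissue its tensile strength. COL1A1 and COL1A2 encode the chains of type I collagen, the main collagen of tendon, bone, skin and the thick connective tissue sheets of muscle. COL3A1 encodes the only chain of type III collagen, which forms thinner fibrils, often together with type I, and is common in extensible tissues, vessel walls and young or healing matrix. In muscle these genes are transcribed mainly by fibroblasts and related cells between the fibres, not by the fibres themselves. Intramuscular connective tissue is of practical interest in cattle because it contributes to the toughness of meat.

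Reads assigned to genes summed to between 17027226 (Steer 456) and 27490776 (Steer 458) per library, and each collagen had between 3806 and 23207 reads per animal. Levels are given as CPM, counts per 1e6 counts of the library, scaled with TMM factors, which adjust the library sizes so that most genes keep the same level and which lay between 0.889 and 1.08. Steer 456 stood apart from the other libraries over the transcriptome as a whole: 628 of the 12769 tested genes (4.92%) lay at least 2-fold above all 5 other libraries there. In each of the other libraries this held for 12 to 42 genes. In the downward direction Steers 456 and 458 both stood apart, with 238 and 227 genes at least 2-fold below all other libraries, against 23 to 55 elsewhere. Results are given with and without Steer 456, and the fold changes also without each other animal. The tissue label was not checked against muscle, fibroblast, tendon or fat markers, because the sources used here pair only the 3 collagen IDs with symbols. How such cells moved with the values below was not tested. In whole muscle, fewer collagen-producing cells and less collagen RNA per cell cannot be told apart.

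COL1A1, the gene of the more numerous chain of type I collagen, had 286 CPM in Bull 20, 237 CPM in Bull 22 and 355 CPM in Bull 23. In the steers it had 182 CPM in Steer 439, 939 CPM in Steer 456 and 156 CPM in Steer 458. One steer thus lay above all bulls and the other two below all bulls, and the groups overlapped. The mean level was 292 ± 59.6 CPM in bulls and 426 ± 444 CPM in steers (SD, n = 3). The log2 fold change, coded as bulls over steers, was -0.54 ± 0.64 (SE; 95% interval -2.01 to 0.93), which did not pass the test (edgeR quasi-likelihood adjusted p = 0.669). On the scale of bulls over steers the interval runs from 0.249-fold to 1.90-fold, which takes in higher and lower levels alike.

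COL1A2, the gene of the partner chain of type I collagen, had 319.8 CPM in Bull 20, 271 CPM in Bull 22 and 355 CPM in Bull 23. Its levels in the steers were 209 CPM in Steer 439, 1025 CPM in Steer 456 and 194 CPM in Steer 458. The animals fell in the same order as for COL1A1, with Steer 456 on top, the bulls in the middle and the other steers at the bottom. Mean levels were 315 ± 42.3 CPM in bulls and 476 ± 476 CPM in steers (SD, n = 3). The log2 fold change was -0.59 ± 0.61 (SE; 95% interval -1.98 to 0.79) and did not pass the test (edgeR adjusted p = 0.615).

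COL3A1, the type III gene, had 602 CPM in Bull 20, 681 CPM in Bull 22 and 496 CPM in Bull 23. It reached 521 CPM in Steer 439, 1309.6 CPM in Steer 456 and 265 CPM in Steer 458. Steer 456 was again the highest and Steer 458 the lowest, but Steer 439 lay among the bulls. Within the bulls the order was the reverse of that of both type I genes, with Bull 22 highest and Bull 23 lowest. The mean was 593 ± 93.0 CPM in bulls and 699 ± 544 CPM in steers (SD, n = 3). The log2 fold change was -0.24 ± 0.51 (SE; 95% interval -1.41 to 0.94) and did not pass the test (edgeR adjusted p = 0.825).

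**Figure D1:**
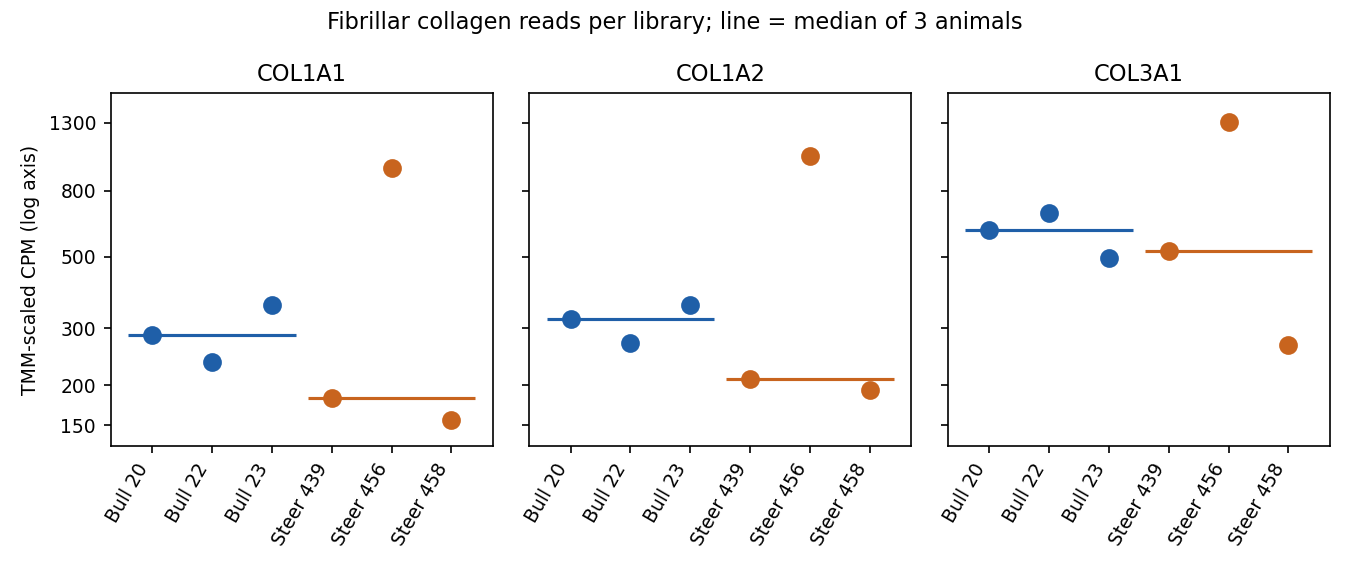
TMM-scaled CPM (log axis) of COL1A1, COL1A2 and COL3A1 in each library, with bulls in blue, steers in orange and a line at the median of each group of 3. Steer 456 is the highest library for every gene (939, 1025 and 1309.6 CPM), while the median of the steers lies below that of the bulls in each panel.

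None of the 3 genes was called, where 4.10% of all tested genes were (524 of 12769; 261 higher and 263 lower in bulls, or 247 higher and 124 lower with library size alone in place of TMM). At an unadjusted p under 0.05 the same fit held 22.4% of all tested genes and 0 of the 3 collagens. DESeq2 also called 0 of the 3, beside 11.8% of all tested genes. Groups that did not overlap were found for 29.6% of all tested genes and for 0 of the 3 collagens. The mean and the median pointed in opposite directions for each gene. The median COL1A1 level was 286 CPM in bulls and 182 CPM in steers. For COL1A2 the medians were 319.8 and 209 CPM, and for COL3A1 602 and 521 CPM. Means of log2 CPM differed little between the groups, by -0.05 for COL1A1, -0.14 for COL1A2 and 0.06 for COL3A1, bulls minus steers.

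Over all 3 animals of each group, the steers spread more than the bulls, and for the type I genes this rested on Steer 456. From the lowest to the highest bull, COL1A1 differed by 1.50-fold, COL1A2 by 1.31-fold and COL3A1 by 1.37-fold. From the lowest to the highest steer, the same genes differed by 6.02-fold, 5.30-fold and 4.93-fold. The SD of log2 CPM among the bulls was 0.29 for COL1A1, 0.20 for COL1A2 and 0.23 for COL3A1, each above the median of all tested genes (0.18). Among the steers it was 1.43, 1.36 and 1.16, against a median of 0.39. In steers 97.9% of the tested genes had a smaller SD than COL1A1, 97.3% a smaller one than COL1A2 and 94.8% a smaller one than COL3A1. In bulls the corresponding shares were 72.6%, 54.9% and 62.4%. Without Steer 456, the other steers differed by 1.17-fold for COL1A1, 1.08-fold for COL1A2 and 1.96-fold for COL3A1. A range over fewer animals tends to be smaller, so these values do not compare like for like with those of the bulls. The SD of these steers was 0.16 for COL1A1, 0.08 for COL1A2 and 0.69 for COL3A1, against a median of 0.24, and 35.4%, 17.7% and 88.8% of the tested genes had a smaller one. With so few animals an SD is itself uncertain, and no test of the spread was made.

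**Figure D2:**
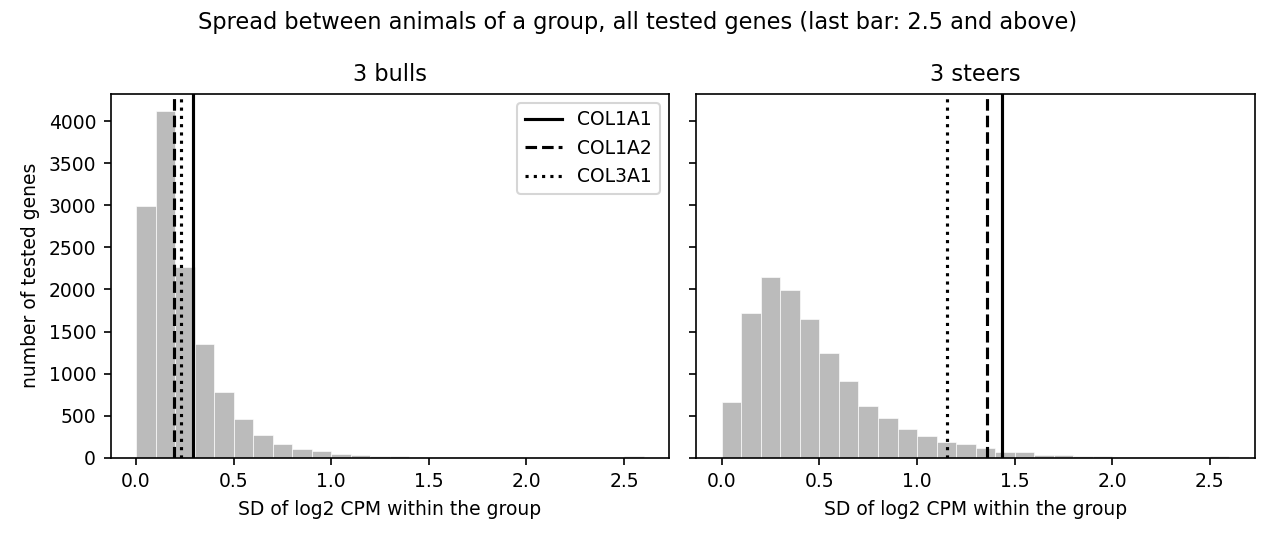
Number of tested genes by the SD of log2 CPM within the 3 bulls (left) and the 3 steers (right), in bins of 0.1, with the 3 collagens as vertical lines. The lines lie near the bulk of genes in bulls (SD 0.20 to 0.29) and in the upper tail in steers (SD 1.16 to 1.43), where without Steer 456 the SD falls to 0.16 for COL1A1, 0.08 for COL1A2 and 0.69 for COL3A1.

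Relative to the mean of the bulls, each steer had its own profile on the log2 CPM scale. Steer 456 lay above that mean by 1.70 for COL1A1, 1.71 for COL1A2 and 1.15 for COL3A1. Of all tested genes, 5.70% were at least as far above the bulls as COL1A1 in that library, 5.65% as far as COL1A2 and 11.6% as far as COL3A1. Steer 458 differed from the mean of the bulls by -0.89 for COL1A1, -0.69 for COL1A2 and -1.15 for COL3A1. In that library 12.6%, 17.2% and 7.97% of the tested genes, respectively, were at least as far below the bulls. Steer 439 differed by -0.66 for COL1A1, -0.58 for COL1A2 and -0.17 for COL3A1, so that the type I genes were further below the bulls than the type III gene. Among the steers, the animal of 950 days had the highest level and those of 930 and 996 days the lower ones. A relation of level to age was not tested.

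Steer 456 exceeded the next highest library by 2.64-fold for COL1A1, 2.89-fold for COL1A2 and 1.92-fold for COL3A1. The type I genes were therefore among the 628 genes at least 2-fold above every other library, and COL3A1 fell just short. By number of reads, 108 genes exceeded COL1A1 in Steer 456, 103 exceeded COL1A2 and 89 exceeded COL3A1. In Steer 458, the other extreme, 798 genes had more reads than COL1A1, 624 more than COL1A2 and 460 more than COL3A1. In the bulls these numbers lay between 279 and 431 for COL1A1, between 280 and 369 for COL1A2 and between 145 and 197 for COL3A1. These places depend on gene length as well as on expression, and only their change between libraries compares like with like.

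Without Steer 456, all 3 genes turned to a higher level in bulls. All bulls then exceeded both remaining steers in COL1A1 and COL1A2, as they did in 22.8% of 13108 tested genes, while COL3A1 of Steer 439 stayed within the bulls' range. The log2 fold change became 0.79 ± 0.21 for COL1A1 (SE; 95% interval 0.31 to 1.27; edgeR adjusted p = 0.0590). For COL1A2 it became 0.65 ± 0.17 (SE; 95% interval 0.25 to 1.05; edgeR adjusted p = 0.0628), and for COL3A1 0.59 ± 0.30 (SE; 95% interval -0.09 to 1.28; edgeR adjusted p = 0.243). None passed in that fit, in which 7.77% of the tested genes were called, and 45.5% had groups that did not overlap in either direction. At an unadjusted p under 0.05 this edgeR fit across all genes held COL1A1 and COL1A2 but not COL3A1, beside 27.1% of all tested genes. DESeq2 without Steer 456 gave adjusted p = 0.00578 for COL1A1, 0.00687 for COL1A2 and 0.174 for COL3A1, and called 13.6% of all tested genes, 7.19% as higher in bulls. limma voom without this animal gave adjusted p = 0.0618, 0.0626 and 0.196 and called 6.51%. Thus the direction of the edgeR fold change rested on 1 animal, and that of COL3A1 also on the method, with 0.028 in limma voom over all animals. Without Steer 456, a call for the type I genes was made by DESeq2 and by neither edgeR nor limma. The DESeq2 and limma runs without this animal were chosen after seeing the data. Leaving out the only steer above the bulls also narrows the spread of the type I genes among the steers. The p-values without Steer 456 therefore depend on that choice.

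Over the 12769 genes tested with all animals, 8.42% went from lower in bulls to higher in bulls when Steer 456 was left out. That share counts all tested genes, also those already higher in bulls, which could not turn in this way. Steer 456 had the highest level of each collagen, so leaving it out moves their fold changes upward by construction. The next shares describe the size of that move only. The fold change moved upward by more than that of COL1A1 in 0.908% of genes, by more than that of COL1A2 in 1.12% and by more than that of COL3A1 in 3.98%. Leaving out any other animal kept the sign, with log2 fold changes of -0.98 to -0.44 for COL1A1, -1.01 to -0.52 for COL1A2 and -0.66 to -0.15 for COL3A1. Without Steer 458, the lowest library for each collagen, they were -0.98, -1.01 and -0.66 (edgeR adjusted p = 0.427, 0.396 and 0.417). The spread, DESeq2 and limma voom were rerun without Steer 456 only, as was the likeness below.

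**Figure D3:**
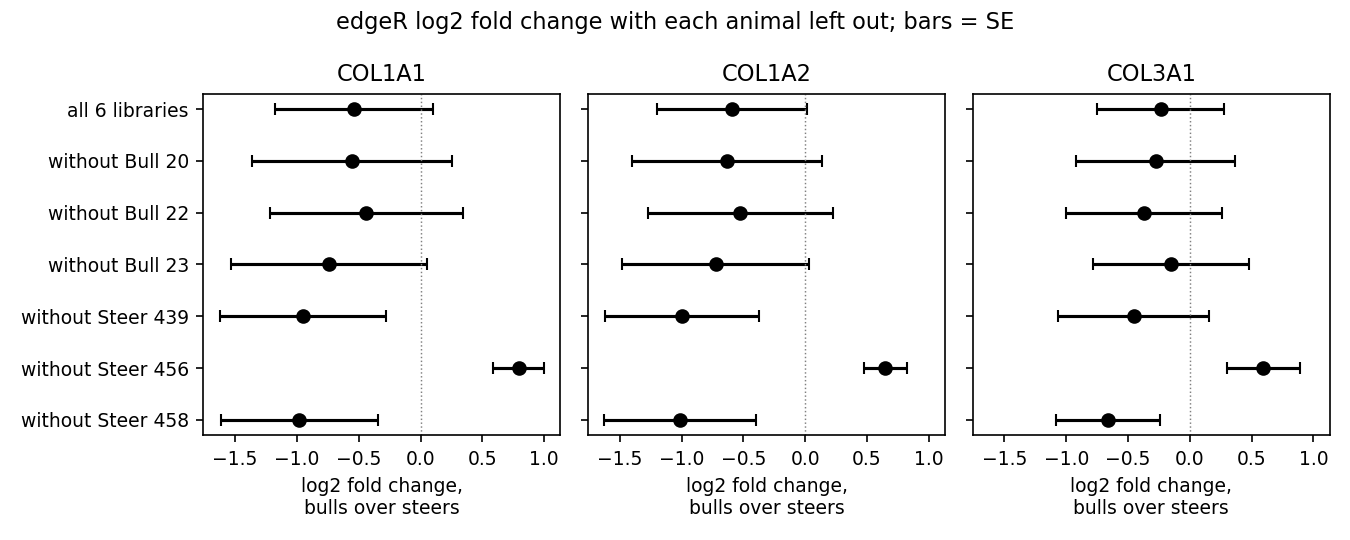
edgeR log2 fold change of bulls over steers (points) with its SE (bars) for each collagen, with all 6 libraries and with each animal left out. All points lie below 0 except those without Steer 456, which lie at 0.79, 0.65 and 0.59.

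The 3 genes together took up 0.124% ± 0.00527 of all gene counts among the bulls and 0.162% ± 0.156 among the steers (SD, n = 3). The share was 0.120% in Bull 20, 0.121% in Bull 22 and 0.130% in Bull 23. Among the steers, 456 had 0.341%, 439 had 0.0900% and 458 had 0.0546%. The 95% Wilson interval in Steer 456 was 0.338% to 0.343%, and in Steer 458 it was 0.0537% to 0.0555%, so counting error was small beside the differences between steers. These intervals cover counting error only. The bulls had nearly equal shares although their genes stood in opposite orders: Bull 23 had the most type I and the least type III reads of the bulls, and Bull 22 the reverse.

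Ratios between chains within a library do not depend on library size or scaling. They are ratios of reads, not of molecules, because the lengths of the transcripts were not used here. The ratio of COL1A1 to COL1A2 was 0.893 in Bull 20, 0.874 in Bull 22 and 1.001 in Bull 23. Steer 439 had a ratio of 0.872, Steer 456 of 0.915 and Steer 458 of 0.806. From the lowest to the highest library it differed by 1.24-fold, although each gene alone differed by more than 5-fold among the steers. Bull 23 and Steer 458 were the extremes, and their 95% counting intervals (0.969 to 1.03 and 0.772 to 0.841) did not overlap those of the other 4 libraries, except that the upper end for Steer 458 just exceeded the lower ends for Bull 22 and Steer 439. The groups overlapped, with a mean log2 ratio of -0.12 ± 0.11 in bulls and -0.21 ± 0.09 in steers (SD, n = 3). The difference of 0.09 did not pass an exact 2-sided permutation test (p = 0.4; adjusted p = 0.7 over the 3 ratios), a test that cannot go below 0.1 with 3 animals against 3.

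The ratio of type III to type I reads varied much more between animals. COL3A1 to COL1A1 was 2.11 in Bull 20, 2.88 in Bull 22 and 1.40 in Bull 23. Steer 439 had a ratio of 2.86, Steer 456 of 1.40 and Steer 458 of 1.70. The bulls and the steers covered nearly the same range, and their lowest values differed by less than counting error. The mean log2 ratio was 1.03 ± 0.52 in bulls and 0.92 ± 0.53 in steers (SD, n = 3), and the difference of 0.11 did not pass (exact permutation p = 0.7; adjusted p = 0.7). COL3A1 to COL1A2 gave 1.88, 2.52 and 1.40 in Bulls 20, 22 and 23, and 2.49, 1.28 and 1.37 in Steers 439, 456 and 458. Its mean log2 ratio was 0.91 ± 0.42 for the bulls and 0.71 ± 0.53 for the steers (SD, n = 3), a difference of 0.20 that did not pass (exact permutation p = 0.5; adjusted p = 0.7).

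**Figure D4:**
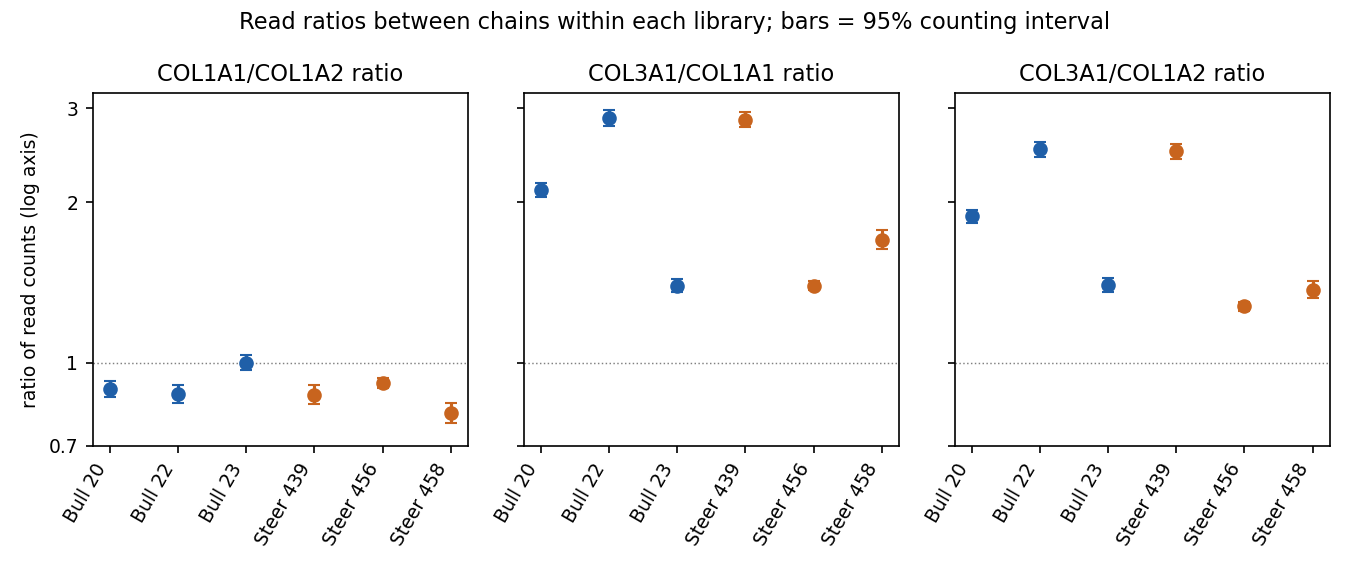
Ratio of read counts between chains in each library (log axis), with bulls in blue, steers in orange and 95% counting intervals as bars. The COL1A1/COL1A2 ratio stays between 0.806 and 1.001, while the COL3A1/COL1A1 ratio runs from 1.40 to 2.88 with bulls and steers intermingled.

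Seen as a composition, COL3A1 made up 49.9% of the reads of the 3 genes in Bull 20, 57.3% in Bull 22 and 41.1% in Bull 23. It made up 57.1% in Steer 439, 40.0% in Steer 456 and 43.2% in Steer 458. Bull 22 and Steer 439 thus shared one composition, and their 95% Wilson intervals overlapped (56.7% to 58.0% and 56.5% to 57.8%). The steers with the most and the fewest collagen reads, Steers 456 and 458, both had a low share of COL3A1. The amount of collagen reads and the share of type III among them were therefore not in the same order across animals.

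The type I genes were each other's nearest neighbours in pattern. Likeness was measured as the SD, over the libraries, of the log2 ratio of 2 genes, which is small where both move in proportion. It was 0.10 for COL1A1 and COL1A2 over the 6 libraries. Of the 8631 other genes with a mean of at least 5 CPM in these libraries, 0 were nearer to either than the partner chain. The median SD to COL1A1 over all these genes was 1.03. Without Steer 456 the SD was 0.11, and 15 genes were nearer to COL1A1 than COL1A2 (0.174%) and 53 were nearer to COL1A2 than COL1A1 (0.614%). COL3A1 followed the type I genes less closely, with an SD of 0.48 to COL1A1 and 0.44 to COL1A2. Over all 6 libraries 1.26% of genes were nearer to COL1A1 than COL3A1 was, and without Steer 456 31.8% were. For COL1A2 the corresponding shares were 1.51% and 43.3%. The SD of COL3A1 to COL1A1 itself was nearly the same without that animal (0.46), while the median SD of all genes to COL1A1 fell from 1.03 to 0.55.

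Against the mean log2 CPM of the 3 collagens, the nearest other genes were ENSBTAG00000000224, with an SD of 0.08, and ENSBTAG00000030190, with an SD of 0.11. COL1A2 itself had 0.14, COL1A1 0.18 and COL3A1 0.30, and the mean of the 3 varied with an SD of 0.82, or 0.41 without Steer 456. Each collagen is part of that mean, which by itself makes its SD smaller. ENSBTAG00000030190 had 249 CPM in Bull 20, 239.97 CPM in Bull 22 and 247 CPM in Bull 23. It had 175 CPM in Steer 439, 705 CPM in Steer 456 and 156 CPM in Steer 458, in each steer on the same side of the bulls as COL1A1. It did not pass the test of bulls over steers (log2 fold change -0.49 ± 0.54, SE; edgeR adjusted p = 0.643). ENSBTAG00000000224 was much less abundant, with 4.21, 4.13 and 4.91 CPM in Bulls 20, 22 and 23 and with 3.02, 11.6 and 2.38 CPM in Steers 439, 456 and 458. Its mean of 5.05 CPM passed the limit of 5 CPM only through Steer 456, so its place at the top rests on that library. Without Steer 456 these genes took places 11 (ENSBTAG00000000224) and 109 (ENSBTAG00000030190) among the 8632 genes compared. The collagens themselves then took places 272 (COL1A1), 158 (COL1A2) and 1209 (COL3A1). These values describe 6 libraries and carry no test.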

How the data were processed

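The authors deposited raw read counts per Ensembl gene, 1 file per animal, with no normalization. TopHat2 2.0.2, HTSeq 0.5.3p3, FastQC and the UMD3.1 build are named, per the submitters' processing notes. The strand setting, the overlap mode and the annotation release were not given in the sources used here. Reads of antisense or overlapping genes may therefore have been counted for another gene or for none. The 5 HTSeq summary rows per file, with 29.3% to 39.9% of all reads and alignments counted, were left out of library sizes and tests. Most of them are alignments to more than one place, which are counted for no gene.

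All 6 libraries were fitted with edgeR 4.0.16 (R 4.3.3), with TMM factors, filterByExpr, robust quasi-likelihood F tests and Benjamini-Hochberg adjustment over 12769 genes at 0.05. The SE is the log2 fold change over the square root of F, and the interval uses the fit's degrees of freedom. Log2 CPM had a prior count of 2. DESeq2 1.42.0 and limma 3.58.1 were alternatives, as were other scalings, other filters and leaving out each animal. The titles number the animals separately, so each counts as 1 replicate, and no 2 libraries agreed within sampling noise (chi-square per degree of freedom at least 26.9). The labels name no batch.

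The named genes are the 3 collagens and the 2 IDs nearest to their mean pattern. These IDs were sought among genes with a mean of at least 5 CPM over the 6 libraries. The members and lists were chosen with earlier results of these data known. The lists of other collagens, collagen enzymes, proteoglycans, matrix proteases, TGF-beta genes and cell type markers were not tested, because the reference table of names (37063 rows, 0 with an Ensembl ID, another assembly than the authors') matched no ID. The symbols of the 3 collagens come with the choice of members, and all 3 occur in that table. Coordinates and sequences are not given.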

Additional observations from a re-analysis of the deposited data

How the results depend on the processing

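No paired analysis was possible because bulls and steers share no animal number. The runs of DESeq2 and limma without Steer 456, the other scalings of the range within a group, the range and SD of the steers without Steer 456 and the likeness without Steer 456 were chosen after seeing the data. Over 15 alternatives, the log2 fold change of COL1A1 and of COL1A2 kept its sign and missed the threshold in 12 each, and that of COL3A1 in 10. The others reversed: without Steer 456 the values were 0.79, 0.65 and 0.59 in edgeR, 0.79, 0.64 and 0.59 in DESeq2 and 0.78, 0.64 and 0.66 in limma voom, for COL1A1, COL1A2 and COL3A1. With all animals limma voom, which averages log2 values, gave -0.096 for COL1A1, -0.19 for COL1A2 and 0.028 for COL3A1, and -0.097, -0.19 and 0.024 with weights per group. With 1 animal left out, the ranges were -0.98 to 0.79, -1.01 to 0.65 and -0.66 to 0.59. The adjusted p ranged over the alternatives from 0.00578 to 0.945 for COL1A1, from 0.00687 to 0.886 for COL1A2 and from 0.174 to 0.981 for COL3A1.

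The number of genes called was 524 and became 1507 in DESeq2, 1785 in DESeq2 without Steer 456, 853 in limma voom without Steer 456 and 7 to 1019 with 1 animal left out. It was 10 without Bull 20, 7 without Bull 22 and 7 without Bull 23. Without Steer 439 it was 995, without Steer 456 1019 and without Steer 458 77. The cause was not tested. The difference in the log2 ratio of COL1A1 to COL1A2 kept its sign, between 0.03 and 0.14 with 1 animal left out. That of COL3A1 to COL1A1 ranged from -0.14 (without Bull 22) to 0.40, and was -0.11 without Steer 456. That of COL3A1 to COL1A2 ranged from -0.011 (without Bull 22) to 0.50. The difference in the share of gene counts held by the 3 genes, bulls minus steers, was -0.0381 percentage points and ranged from -0.0916 to 0.0514, above 0 only without Steer 456. Without Steer 456 the fold between the highest and the lowest steer fell from 6.02 to 1.17 for COL1A1, from 5.30 to 1.08 for COL1A2 and from 4.93 to 1.96 for COL3A1. No setting with reduced depth was run.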
